A study of Mus musculus with 2 samples.

Results

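The Hox genes are the 39 protein-coding genes of the mouse that lie in 4 chromosomal clusters, HoxA to HoxD. They were taken as every protein-coding row of the deposited table whose symbol is Hox, a cluster letter and a paralogue number, which gave 39 of 55323 rows: 11 in HoxA, 10 in HoxB, 9 in HoxC and 9 in HoxD. The choice used the symbol and the row type and no measured value. The samples were total RNA of TgS1, a mouse line that carries the label of Schwann cells, the glia that wrap peripheral nerve axons. The first library came from TgS1 cells after long-term culture in SCM, a medium named by that abbreviation alone. The library against which it is set came from TgS1 cells after long-term culture in DMEM, a common basal medium, which the series' design text writes as S-DEMEM. Both cultures carried the same genotype, TTR V30M tg, a transgene of the human amyloid-forming serum protein transthyretin. The labels do not name the promoter of that transgene, the age or sex of the source animals, or whether the line is 1 clone.

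Each medium had 1 library, so no difference between the media has a replicate check and no test between media was possible. The deposited values were FPKM, the reads of a gene scaled to its length in kilobases and to the total reads of its library. Whole reads could be recovered from them, 36666676 in the SCM library and 29085791 in the DMEM library. Each ratio is SCM over DMEM and has a 95% exact (Clopper-Pearson) interval from those reads, which covers counting error only. In such bulk RNA, fewer cells with a transcript and less of it in each cell cannot be told apart. The Schwann cell label was set against its markers. All 14 were at 1 FPKM or more in 1 or both libraries, and they summed to 4360 FPKM in SCM and 4351 FPKM in DMEM. Sox10, the transcription factor that defines the glial crest lineage, was at 113 FPKM in SCM and 126 FPKM in DMEM. Of the 12 fibroblast markers, 2 reached 1 FPKM, and the summed level of the 12 was 13.9 FPKM in SCM and 8.83 FPKM in DMEM. These 2 were Pdgfrb, at 10.6 FPKM in SCM and 7.86 FPKM in DMEM, and Col1a2, at 3.15 FPKM in SCM and 0.742 FPKM in DMEM, a ratio of 4.24 (3.72 to 4.85). Col1a1, Lum and Dpt were at 0 in both. Summed endothelial markers were at 0.221 FPKM in SCM and 0.425 FPKM in DMEM, and summed macrophage and leukocyte markers at 1.65 FPKM in SCM and 1.495 FPKM in DMEM. The part of other cells in the Hox values was not tested.

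Hox proteins are homeodomain transcription factors that give cells along the body axis their regional identity. Within a cluster the genes are numbered by paralogue group, from 1 at the 3′ end to 13 at the 5′ end. Low-numbered genes are switched on early and reach anteriorly into the hindbrain and neck, central genes cover the neck and upper trunk, and high-numbered genes mark the lumbar, tail and distal limb regions. Neural crest cells keep much of the Hox code of the axial level they leave. Crest cells of the foremost head lack Hox expression, and cultured fibroblasts are known to hold the code of their site of origin. Polycomb complexes keep silent Hox genes off and Trithorax complexes keep active ones on.

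TgS1 cells held a central Hox profile in both media. The 15 genes of paralogue groups 4 to 8 carried 93.7% of summed Hox FPKM in SCM and 92.9% in DMEM. The 8 genes of groups 1 to 3 carried 6.01% in SCM and 6.95% in DMEM. The 16 genes of groups 9 to 13 carried 0.281% in SCM and 0.182% in DMEM, which rest on 21 reads in SCM and 12 reads in DMEM. By cluster, HoxA and HoxB held nearly all of the signal, HoxC a small part and HoxD none. In all, 23 members had a read in the SCM library and 22 in the DMEM library, and 16 members had 0 reads in both, which is 41.0% of the members beside 34.1% of the 21821 protein-coding rows. The 3 highest genes, Hoxa7, Hoxb7 and Hoxb4, made up 62.6% of summed Hox FPKM in SCM and 60.4% in DMEM.

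The step at the 5′ edge of the expressed stretch lay between neighbouring genes. In the order of the HoxA cluster it fell between Hoxa7 and Hoxa9, which the table places 1245 bases apart. The promoters of the genes on either side of that step are printed here, with those of Hoxb4, an expressed group 4 gene, and Hoxd4, its HoxD paralogue with 0 reads. The sequences are the 250 bases before the annotated start of each gene in RefSeq, build GRCm38.p6. They run 5′ to 3′ on the gene's own strand, with CG dinucleotides, the bases that can carry mammalian DNA methylation, in capitals. By the spacing of genes within each cluster, the counted rows of Hoxa7, Hoxa9 and Hoxd4 reach farther 5′ than these RefSeq starts. The gap of 1245 bases is between the counted rows, so it and the printed stretches use different starts.
Hoxa7, expressed (chr6:52218574-52218823, minus strand): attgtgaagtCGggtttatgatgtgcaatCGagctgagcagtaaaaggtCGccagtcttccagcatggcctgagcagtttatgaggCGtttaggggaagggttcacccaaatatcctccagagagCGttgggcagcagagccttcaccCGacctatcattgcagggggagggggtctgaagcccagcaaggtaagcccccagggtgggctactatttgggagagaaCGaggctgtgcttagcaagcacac
Hoxa9, at 1 read in SCM and 3 reads in DMEM (chr6:52227371-52227620, minus strand): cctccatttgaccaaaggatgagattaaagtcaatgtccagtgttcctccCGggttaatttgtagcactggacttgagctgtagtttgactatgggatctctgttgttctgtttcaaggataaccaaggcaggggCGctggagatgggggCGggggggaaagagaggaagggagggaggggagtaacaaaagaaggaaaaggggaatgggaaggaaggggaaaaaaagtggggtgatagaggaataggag
Hoxb4, expressed (chr11:96318017-96318266, plus strand): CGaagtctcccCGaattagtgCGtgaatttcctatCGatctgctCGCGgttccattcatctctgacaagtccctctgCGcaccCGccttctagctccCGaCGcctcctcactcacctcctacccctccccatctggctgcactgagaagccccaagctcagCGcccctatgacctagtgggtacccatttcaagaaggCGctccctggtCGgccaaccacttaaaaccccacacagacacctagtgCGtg
Hoxd4, at 0 reads (chr2:74721728-74721977, plus strand): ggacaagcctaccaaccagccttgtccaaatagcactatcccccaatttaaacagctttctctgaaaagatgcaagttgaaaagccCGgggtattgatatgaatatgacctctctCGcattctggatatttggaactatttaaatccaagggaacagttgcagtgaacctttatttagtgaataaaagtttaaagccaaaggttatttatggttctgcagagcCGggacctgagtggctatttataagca
These 4 stretches hold 7 CG in Hoxa7, 3 in Hoxa9, 14 in Hoxb4 and 3 in Hoxd4. Over all the Hox promoters, the expressed and silent genes were close. The RefSeq table held promoters for 22 of the 39 Hox genes, and the median was 14 CG over the 7 promoters of genes at 1 FPKM or more and 13 CG over the 13 promoters of 12 genes at 0 reads. Over all 32851 promoters of the table the median was 6 CG. The letters TGATNNAT, a form of the joint site that Hox proteins bind with their PBX partners, were looked for on both strands and were present in 4 of 24 Hox promoters and in 7.68% of all promoters. The letters TATAAA, the core of the TATA box, were present on either strand in 4 of 24 Hox promoters and in 12.4% of all. A match is a description of the letters and no measure of binding.

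**Figure D1:**
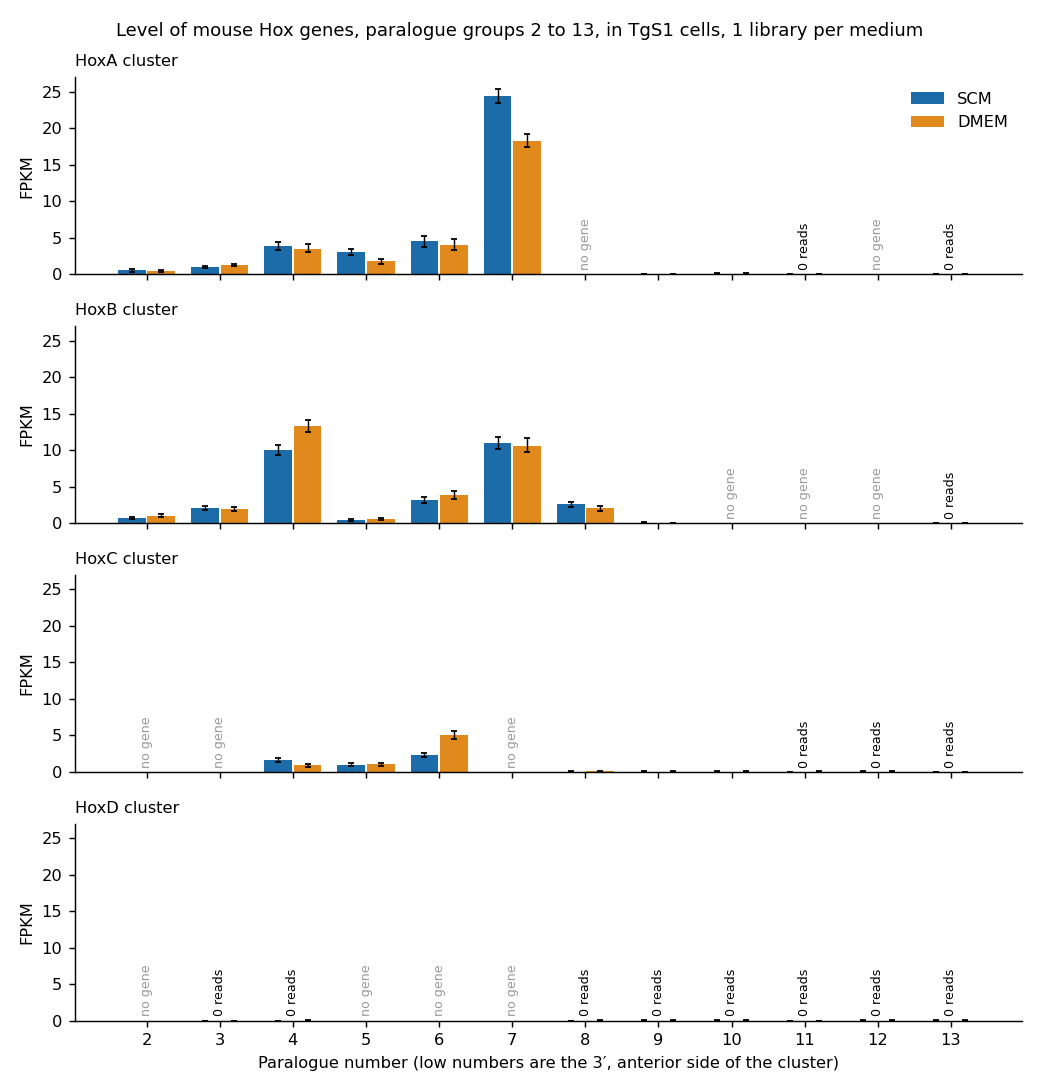
FPKM of the Hox genes of paralogue groups 2 to 13 by cluster (panels) and paralogue number (x axis) in the SCM library (left bars) and the DMEM library (right bars); error bars are 95% exact Poisson intervals of the reads. Hoxa7 is the tallest in both libraries at 24.4 FPKM in SCM and 18.3 FPKM in DMEM, and every HoxD gene plotted has 0 reads.

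HoxA held the largest share of Hox signal in SCM. Its 11 genes summed to 37.5 FPKM in SCM and 29.6 FPKM in DMEM, a ratio of 1.27. They made up 51.8% of all Hox FPKM in SCM and 42.4% in DMEM. The ratio of its summed reads was 1.26 (interval 1.19 to 1.33). Hoxa7, which takes part in patterning the upper thoracic skeleton, was the highest Hox gene in each library, with 24.4 FPKM from 2572 reads in SCM and 18.3 FPKM from 1530 reads in DMEM. Its ratio was 1.33 (1.25 to 1.42), or 0.40 on the log2(FPKM + 1) scale. Hoxa7 accounted for most of the cluster's difference in FPKM, since the ratio of the other HoxA genes was 1.16. Among all 55323 rows of the table Hoxa7 ranked 1721 by FPKM in SCM and 2445 in DMEM. It stood above the median of protein-coding rows at 1 FPKM or more, which was 7.15 FPKM in SCM and 7.28 FPKM in DMEM.

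The genes on the 3′ side of Hoxa7 were lower. Hoxa6, another thoracic patterning gene, was at 4.49 FPKM (144 reads) in SCM and 4.01 FPKM (102 reads) in DMEM. Hoxa7 thus exceeded its neighbour by 5.43-fold per length in SCM and by 4.56-fold in DMEM. Hoxa5, which patterns the cervical and upper thoracic skeleton and is needed for the lung and trachea, was at 3.02 FPKM (208 reads) in SCM and 1.76 FPKM (96 reads) in DMEM. The ratio of Hoxa5 was 1.72 (1.34 to 2.21), the second largest among the 13 genes that reached 1 FPKM. Hoxa4, a neck vertebra patterning gene, was at 3.82 FPKM (223 reads) in SCM and 3.52 FPKM (163 reads) in DMEM. The intervals of Hoxa6, at 1.12 (0.863 to 1.46), and Hoxa4, at 1.09 (0.883 to 1.34), held 1, so no difference was detectable for them at this depth, while that of Hoxa5 lay above 1.

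The 3′ end of HoxA tapered. Hoxa3, needed in crest cells and pharyngeal pouches for the thymus and parathyroid, was at 0.980 FPKM in SCM and 1.23 FPKM in DMEM, from 216 reads in each. Its ratio was 0.793, with an interval (0.654 to 0.962) that lay below 1. Hoxa2, which sets the identity of the second pharyngeal arch and whose loss turns that arch towards the first, was at 0.522 FPKM (34 reads) in SCM and 0.426 FPKM (22 reads) in DMEM. From Hoxa7 to Hoxa2 the level was thus lower at each gene towards the 3′ end, with 1 exception in both libraries, Hoxa4, which stood above Hoxa5.

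The 5′ side of HoxA was near the floor. Hoxa9, a posterior gene and a known partner of Meis1 in leukaemia, had 1 read in SCM and 3 reads in DMEM, or 0.00489 FPKM in SCM and 0.0185 FPKM in DMEM. The level of Hoxa7 divided by that of Hoxa9 was 4990 (895 to 197177) in SCM and 989 (338 to 4803) in DMEM. Hoxa10, which patterns the lumbar region and the uterus, had 10 reads in SCM and 5 reads in DMEM. Hoxa11, a gene of the forearm and uterus, and Hoxa13, a gene of the digits and genital tract, had 0 reads in both. That ratio was larger than those at the edges of HoxB and HoxC in both libraries, but in DMEM its interval overlapped that of HoxB.

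HoxB was lower in SCM as a sum, at 29.9 FPKM in SCM and 33.1 FPKM in DMEM. That was a ratio of 0.902 in FPKM and 0.889 (0.840 to 0.942) in reads, and HoxB made up 41.2% of Hox FPKM in SCM and 47.4% in DMEM. Hoxb4, a gene of the lower hindbrain and neck that is also known for expanding blood stem cells when it is overexpressed, was at 10.001 FPKM (941 reads) in SCM and 13.2 FPKM (988 reads) in DMEM. Its ratio was 0.756 (0.690 to 0.827), or -0.37 on the log2(FPKM + 1) scale. Without Hoxb4 the summed FPKM of the other HoxB genes had a ratio of 0.9996. That sum held genes on both sides of 1, with Hoxb2 at 0.657 (0.484 to 0.889) and Hoxb8 at 1.28 (1.04 to 1.57). Hoxb7, a trunk gene also studied in human breast cancer, was at 11.0 FPKM (620 reads) in SCM and 10.6 FPKM (476 reads) in DMEM. Its ratio was 1.03 (0.915 to 1.17), and its interval held 1. Hoxb7 stood above Hoxb4 in SCM and below it in DMEM. The interval for that pair held 1 in SCM, where the ratio of Hoxb7 to Hoxb4 was 1.09 (0.988 to 1.21), and did not in DMEM, where Hoxb4 exceeded Hoxb7 by 1.25-fold (1.12 to 1.396).

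The other HoxB genes were uneven along the cluster. Hoxb8, which is expressed in a lineage of microglia and whose loss makes mice groom to excess, was at 2.57 FPKM (248 reads) in SCM and 2.01 FPKM (154 reads) in DMEM, a ratio of 1.28 (1.04 to 1.57). Hoxb6, a trunk and lateral mesoderm gene, was at 3.18 FPKM (229 reads) in SCM and 3.82 FPKM (218 reads) in DMEM, a ratio of 0.833 (0.689 to 1.01). Hoxb3, a hindbrain and pharyngeal gene, was at 2.04 FPKM (318 reads) in SCM and 1.94 FPKM (240 reads) in DMEM, a ratio of 1.05 (0.886 to 1.25). Of these, only the interval of Hoxb8 left out 1. Hoxb5, which acts on Ret in enteric crest cells, sat in a dip between higher neighbours, at 0.421 FPKM (43 reads) in SCM and 0.506 FPKM (41 reads) in DMEM. Hoxb4 exceeded Hoxb5 by 23.8-fold (17.5 to 33.1) in SCM and by 26.2-fold (19.1 to 36.7) in DMEM. On its other side Hoxb6 exceeded Hoxb5 by 7.55-fold (5.44 to 10.7) in SCM and by 7.54-fold (5.38 to 10.8) in DMEM, so the dip had nearly the same depth in both media.

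At its ends HoxB fell away. Hoxb2, a hindbrain gene, was at 0.641 FPKM (82 reads) in SCM and 0.976 FPKM (99 reads) in DMEM, a ratio of 0.657 (0.484 to 0.889). Hoxb1, which defines the hindbrain segment of the facial motor nucleus, had 0 reads in both. On the 5′ side Hoxb9, a thoracic gene, had 5 reads in SCM and 1 read in DMEM, and Hoxb13, a gene of the prostate and tail, had 0 reads in both. The level of Hoxb8 divided by that of Hoxb9, whose rows lie 5309 bases apart, was 48.5 (20.5 to 151) in SCM and 150 (26.6 to 5980) in DMEM. The last expressed gene was thus of group 8 in HoxB and of group 7 in HoxA, which has no group 8 gene. In both clusters the next gene on the 5′ side was of group 9.

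HoxC held the gene whose ratio was farthest from 1 among the 13 genes at 1 FPKM or more. Hoxc6, a thoracic gene that in the spinal cord marks motor neurons at forelimb level, was at 2.29 FPKM (202 reads) in SCM and 5.05 FPKM (354 reads) in DMEM. Its ratio was 0.453 (0.379 to 0.540), which is 2.21-fold (1.85 to 2.64) lower in SCM. Hoxc4, the most 3′ gene of the cluster and one with a role in neck and upper trunk patterning, was at 1.68 FPKM (158 reads) in SCM and 0.897 FPKM (67 reads) in DMEM. The ratio of Hoxc4 was 1.87 (1.40 to 2.53), the largest among the 13 genes. Hoxc5, between them by number, was at 1.02 FPKM (115 reads) in SCM and 1.04 FPKM (93 reads) in DMEM, a ratio of 0.981 (0.740 to 1.30). Members of 1 cluster thus lay on opposite sides of 1, with Hoxc6 below it and Hoxc4 above.

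The sum over HoxC was 5.07 FPKM in SCM and 7.10 FPKM in DMEM, a ratio of 0.714 in FPKM and 0.733 (0.646 to 0.831) in reads. Without Hoxc6 the ratio of the other HoxC genes was 1.36, so the direction of the sum rested on that gene. Neither Hoxc6 nor Hoxc4 shares exon bases with another row that has reads. On the 5′ side, Hoxc8, which specifies motor pools of the lower neck and upper trunk, had 3 reads in SCM and 6 reads in DMEM. Hoxc9, which sets thoracic motor neuron identity, had 3 reads in each library. Hoxc10, a lumbar motor neuron gene, had 2 reads in SCM and 0 in DMEM, and Hoxc11, Hoxc12 and Hoxc13, a hair and nail gene, had 0 in both. The level of Hoxc6 divided by that of Hoxc8 was 79.2 (26.7 to 387) in SCM and 69.4 (31.6 to 190) in DMEM, so the step stood at the same place in both media while Hoxc6 itself differed. HoxC has no group 7 gene.

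None of the 9 HoxD genes had a read in either library. They include Hoxd1, known from pain-sensing neurons, Hoxd3 and Hoxd4 of the neck, and Hoxd8 to Hoxd13, which pattern the lower trunk, limbs and digits. A count of 0 allows up to 3 reads, which for these lengths is 0.0194 to 0.0451 FPKM in SCM and 0.0245 to 0.0568 FPKM in DMEM. The 10 other rows inside the HoxD span, with Haglr, a long RNA of the cluster, among them, also had 0 reads. Hoxd3 and Hoxd4 thus differed in counted reads from their paralogues. Hoxa3 and Hoxb3 had 216 and 318 reads in SCM, against 216 and 240 reads in DMEM. Hoxa4, Hoxb4 and Hoxc4 had 223, 941 and 158 reads in SCM, against 163, 988 and 67 reads in DMEM. Outside HoxD, all 13 genes of groups 4 to 8 had reads in both libraries. Hoxd3 shares 53.1% and Hoxd4 39.1% of its length with Gm28230, a row on the same strand with 0 reads. No source used here says how reads in shared exons were counted, so the limits given for Hoxd3 and Hoxd4 may be too low.

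**Figure D2:**
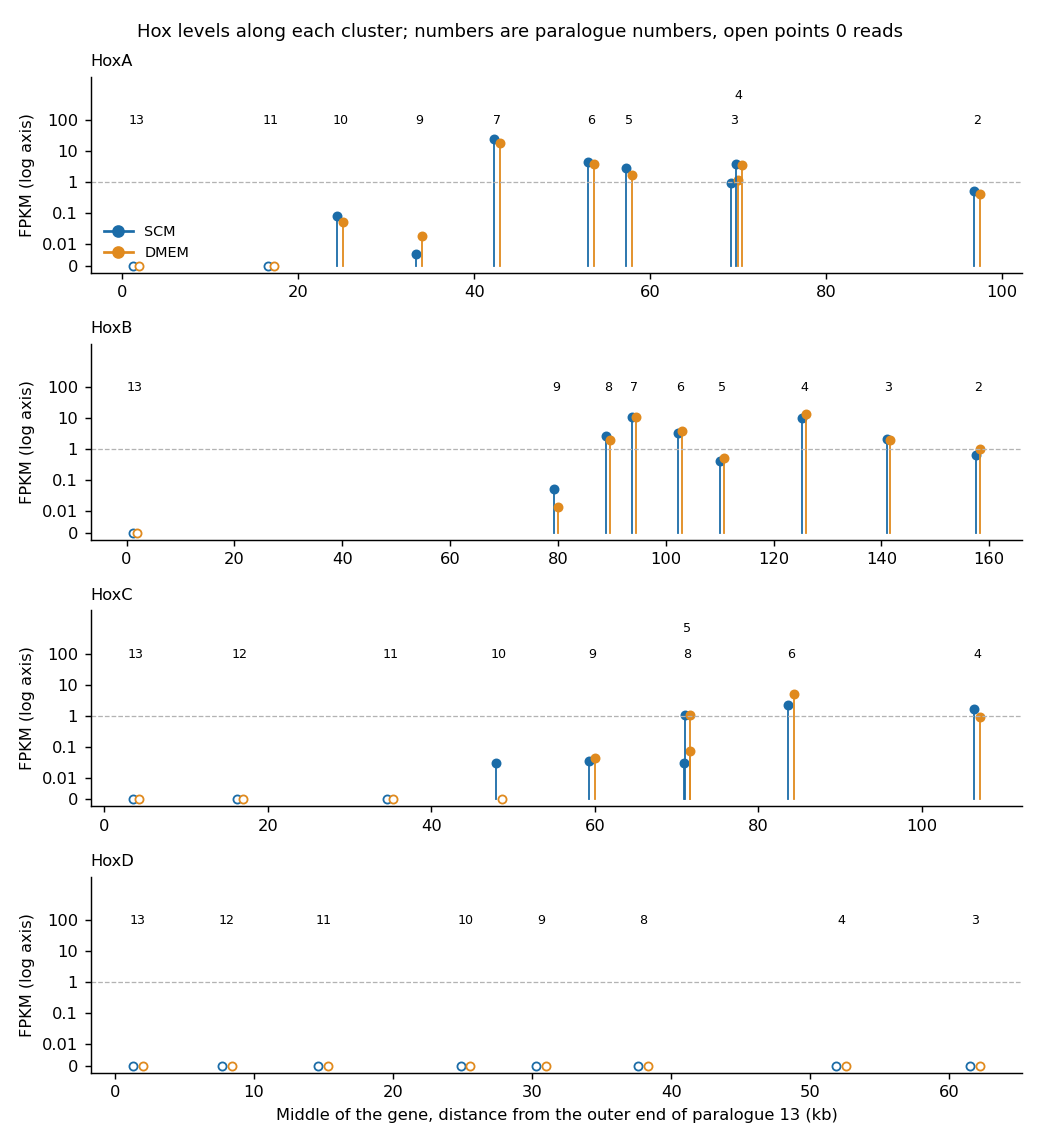
FPKM on a log axis against the position of each gene's middle along its cluster, for paralogue groups 2 to 13, in kb from the outer end of paralogue 13; SCM points stand left of DMEM points, numbers are paralogue numbers, open points are 0 reads and the dashed line is 1 FPKM. In HoxA, HoxB and HoxC the points drop at the same place in both libraries, after Hoxa7, Hoxb8 and Hoxc6, and HoxD is at 0 throughout; the middles of Hoxa3 and Hoxa4 and of Hoxc5 and Hoxc8 nearly coincide.

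Paralogues of 1 group share a protein class and much of their function, and their levels per length were compared within each library. In group 7, which held 48.8% of Hox FPKM in SCM and 41.4% in DMEM, Hoxa7 exceeded Hoxb7 by 2.23-fold (2.04 to 2.44) in SCM and by 1.73-fold (1.56 to 1.92) in DMEM. In group 4, Hoxb4 exceeded Hoxa4 by 2.62-fold (2.26 to 3.05) in SCM and by 3.77-fold (3.19 to 4.47) in DMEM. Hoxb4 exceeded Hoxc4 by 5.96-fold (5.03 to 7.10) in SCM and by 14.8-fold (11.5 to 19.2) in DMEM. The leading paralogue of groups 4 and 7 was thus the same gene in both media, with a narrower lead over Hoxa4 and Hoxc4 in SCM.

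In group 5 the leading gene was Hoxa5. It exceeded Hoxb5 by 7.18-fold (5.15 to 10.2) in SCM and by 3.48-fold (2.39 to 5.14) in DMEM. In group 6 the order changed. The level of Hoxa6 divided by that of Hoxc6 was 1.96 (1.57 to 2.44) in SCM and 0.794 (0.631 to 0.992) in DMEM. The level of Hoxb6 divided by that of Hoxc6 was 1.39 (1.15 to 1.69) in SCM and 0.755 (0.635 to 0.896) in DMEM. Hoxc6 was thus the lowest of its group in SCM and the highest in DMEM, with every interval of these pairs leaving out 1. In group 8 Hoxb8 alone stood above 1 FPKM, and its level divided by that of Hoxc8 was 88.8 (30.1 to 434) in SCM and 27.6 (12.4 to 76.3) in DMEM. Hoxd8 had no reads.

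Over the 13 genes that reached 1 FPKM in 1 or both libraries, the order of levels was alike in both media. Spearman's rho between the libraries was 0.863 and Pearson's r of log2 levels 0.937, over genes that share a library and are not independent replicates. Hoxc6 moved most in that order, at place 9 of 13 in SCM and place 4 of 13 in DMEM. Of the 12 neighbouring pairs in the order, 8 in SCM and 6 in DMEM had a ratio whose interval held 1, so those neighbours did not differ beyond counting error. In SCM Hoxa6 to Hoxb3 formed 1 run of such neighbours. In DMEM the pairs were Hoxa6 and Hoxb6, Hoxb6 and Hoxa4, Hoxb8 and Hoxb3, Hoxb3 and Hoxa5, Hoxa3 and Hoxc5, and Hoxc5 and Hoxc4. Hoxa7 and the pair of Hoxb4 and Hoxb7 stood apart from the rest in both.

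No Hox gene passed a 2-fold difference on the log2(FPKM + 1) scale, a scale that understates the change of low genes. Of the 13 that reached 1 FPKM, 0 were higher in SCM, where 3.10% of all 12334 rows at that level were, and 0 were lower, where 2.80% were. In either direction the share of all rows was 5.89%. The median over the 13 genes was 0.05 and over all those rows -0.03, with 8 genes above 0 and 5 below, from -0.88 for Hoxc6 to 0.54 for Hoxa5. On the plain FPKM ratio, with the further demand that the counting interval leave out 1, Hoxc6 alone passed 2-fold, where 9.40% of all rows did. The interval left out 1 at any size for 7 of 13 genes, or 53.8%, against 65.5% of all rows. These were Hoxa5, Hoxa7, Hoxb8 and Hoxc4, higher in SCM, and Hoxa3, Hoxb4 and Hoxc6, lower in SCM. The members' shares were below those of all rows in these counts, but only 13 genes are behind them and the difference was not tested. The median level of the 13 was 3.02 FPKM in SCM and 3.52 FPKM in DMEM. Over the 10081 protein-coding rows at 1 FPKM or more it was 7.15 FPKM in SCM and 7.28 FPKM in DMEM. Fewer reads give wider counting intervals, so the lower shares do not show that Hox genes were steadier.

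The 10 members with reads that stayed under 1 FPKM in both libraries included Hoxa2, Hoxa9, Hoxa10, Hoxb2, Hoxb5, Hoxb9, Hoxc8, Hoxc9 and Hoxc10. Hoxb2 lay just under that limit at 0.976 FPKM in DMEM, and Hoxc5 just over it at 1.04 FPKM in DMEM. With the 16 members at 0 reads, these 10 and the 13 above account for all 39.

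**Figure D3:**
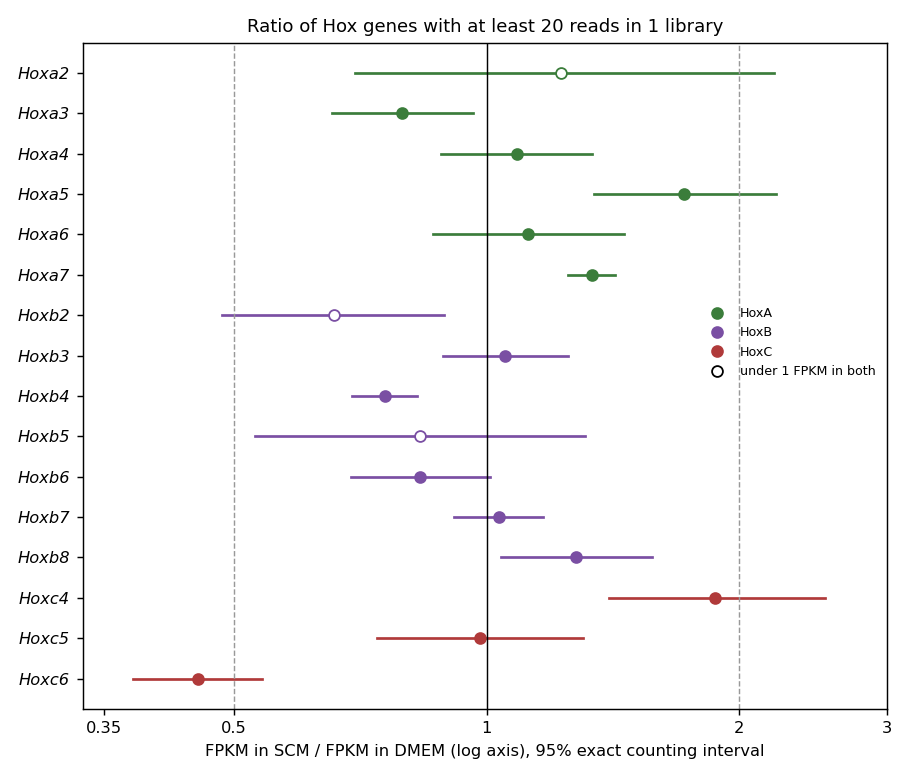
FPKM in SCM divided by FPKM in DMEM, on a log axis, for the 16 Hox genes with at least 20 reads in 1 library; bars are 95% exact counting intervals, dashed lines mark 2-fold and open points are genes under 1 FPKM in both. Hoxc6, at 0.453, is the only gene past a dashed line, and Hoxc4, at 1.87, and Hoxa5, at 1.72, are the highest.

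Long noncoding RNAs and microRNAs that lie between the Hox genes were few and low. Hotairm1, a long RNA of the HoxA cluster that is known from human myeloid differentiation, was at 0.798 FPKM (30 reads) in SCM and 0.671 FPKM (20 reads) in DMEM. Hoxb3os, antisense to Hoxb3, was at 1.03 FPKM (158 reads) in SCM and 0.966 FPKM (118 reads) in DMEM, a ratio of 1.06 (0.832 to 1.36). Hoxaas2 was at 0.333 FPKM in SCM and 0.358 FPKM in DMEM, and Hoxaas3 at 0.208 FPKM in SCM and 0.0952 FPKM in DMEM. Hotair, the long RNA of the 5′ HoxC region, had 0 reads in both, as did Hoxa11os. Of the 6 microRNA genes of the clusters, Mir10a had 0 reads in SCM and 3 reads in DMEM and the other 5 had 0, in a library type that does not target mature microRNAs. Other rows with reads lay in HoxA and HoxB alone: the 7 other rows in the HoxC span, which holds expressed genes, and the 10 in the HoxD span had 0 reads, while those of HoxA summed to 121 reads in SCM and 88 in DMEM and those of HoxB to 164 reads in SCM and 133 in DMEM.

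Overlapping neighbours limit some of these values. Of the 13 genes, 5 share exon bases with another row that has reads: Hoxa3, Hoxa4, Hoxa7, Hoxb3 and Hoxc5. The partner of Hoxc5 is Hoxc10, on the same strand with 166 shared bases, and it had 2 reads in SCM and 0 in DMEM. For the other 4 genes the partners with reads lie on the opposite strand. No source used here gives the strand setting of the counting, and without it the reads of such antisense partners cannot be told apart. Hoxb3 shares 2250 bases, 52.9% of its length, with Hoxb3os, and Hoxb3 had 318 reads in SCM and 240 in DMEM beside the 158 in SCM and 118 in DMEM of Hoxb3os. Hoxb2 shares 27.3% of its length with the same RNA. Hoxa7 shares 586 bases, 20.4% of its length, with Hoxaas3, which had 22 reads in SCM and 8 reads in DMEM beside the 2572 reads in SCM and 1530 in DMEM of Hoxa7.

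Hox proteins bind DNA together with TALE homeodomain cofactors of the PBX, MEIS and PREP families. The list taken here held 12 genes, of which Tgif1, Tgif2 and Pbxip1 lie outside those families. Of the 12, 11 reached 1 FPKM, and none passed 2-fold on the log2(FPKM + 1) scale, beside 5.89% of all rows. The median of that scale was -0.08. Meis2 was at 20.4 FPKM in SCM and 12.4 FPKM in DMEM, a ratio of 1.65 (1.59 to 1.71). Meis3 was at 7.89 FPKM in SCM and 12.4 FPKM in DMEM, a ratio of 0.637 (0.583 to 0.696). Members of the MEIS family thus lay on opposite sides of 1, with Meis1 near it at 0.899 (0.812 to 0.995). Tgif1, a repressive TALE protein, was at 5.70 FPKM in SCM and 8.37 FPKM in DMEM, and Pknox2, of the PREP family, at 2.43 FPKM in SCM and 2.91 FPKM in DMEM.

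Complexes that keep Hox genes silent or active were present in both libraries. Of 35 Polycomb genes, 31 reached 1 FPKM and 0 passed 2-fold on the log2(FPKM + 1) scale, beside 5.89% of all rows. Their median was -0.03. Pcgf2, a ring finger subunit of Polycomb repressive complex 1 whose loss shifts vertebral identity in mice, was at 2.67 FPKM in SCM and 5.59 FPKM in DMEM. On the plain FPKM ratio Pcgf2 was 2.09-fold (1.83 to 2.40) lower in SCM. Rbbp7, a histone-binding subunit shared with other complexes, was at 179 FPKM in SCM and 115 FPKM in DMEM. Phc1 was at 3.24 FPKM in SCM and 4.81 FPKM in DMEM and Pcgf1 at 1.87 FPKM in SCM and 2.90 FPKM in DMEM. Of 23 Trithorax and H3K27 demethylase genes, 22 reached 1 FPKM and 0 passed 2-fold on that scale, beside the same 5.89%. Their median was -0.05. With lists of this size, counts of 0 lie near that share and do not show that these genes were steadier. Paxip1, a partner of H3K4 methyltransferase complexes, was at 12.2 FPKM in SCM and 24.0 FPKM in DMEM. Dot1l, the H3K79 methyltransferase, was at 18.02 FPKM in SCM and 31.2 FPKM in DMEM. Cxxc1, which binds unmethylated CG, was at 12.3 FPKM in SCM and 17.7 FPKM in DMEM, and Setd1a at 1.73 FPKM in SCM and 2.65 FPKM in DMEM.

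Of 22 genes of cluster architecture and upstream signalling, 15 reached 1 FPKM, 1 was higher and 0 were lower on the log2(FPKM + 1) scale, beside 3.10% and 2.80% of all rows, with a median of -0.02. The higher gene was Rarb, a retinoic acid receptor that is itself a retinoic acid target, at 3.39 FPKM (655 reads) in SCM and 1.18 FPKM (180 reads) in DMEM, a ratio of 2.89 (2.44 to 3.42). Hoxb1, a retinoic acid responsive Hox gene, had 0 reads in both. The other 14 had ratios from 0.802 for Maz, a boundary factor, to 1.16 for Rarg, another retinoic acid receptor. Just under the limit of 1 FPKM, Egr2 was at 0.995 FPKM (124 reads) in SCM and 0.283 FPKM (28 reads) in DMEM. Its ratio was 3.51 (2.32 to 5.50). Also under that limit, Rxrg had 13 reads in SCM and 1 read in DMEM, and Gmnn had a ratio of 0.719 (0.420 to 1.23). Among the genes of the cohesin ring and its loading, Smc1a was at 0.826, Stag1 at 0.836, Smc3 at 0.845, Rad21 at 0.983, Nipbl at 1.01 and Stag2 at 1.13. The boundary factor Ctcf was at 0.882 (0.832 to 0.934). The Cdx genes Cdx2 and Cdx4, which switch on trunk Hox genes in the embryo, had 0 reads, Cdx1 had 1 read in each library, and none of the 8 Evx and ParaHox genes reached 1 FPKM.

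**Figure D4:**
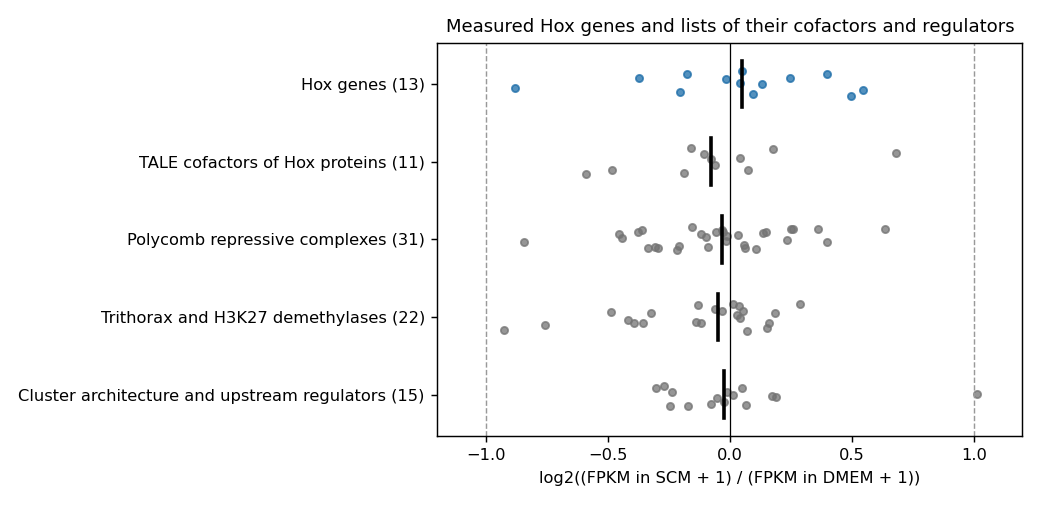
log2((FPKM in SCM + 1)/(FPKM in DMEM + 1)) of each gene at 1 FPKM or more in 1 or both libraries, for the Hox genes and 4 lists of cofactors and regulators; each point is a gene with random vertical spread, black ticks are medians, dashed lines mark 2-fold and the numbers in brackets count genes. The medians lie between -0.08 and 0.05, and Rarb is the only point past a dashed line.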

How the data were processed

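Total RNA of TgS1 cells in SCM and in DMEM, 1 library each, was prepared with a stranded total RNA kit, per the labels' protocols. Per the submitters' processing notes, the tools were STAR 2.7.9a, featureCounts 2.0.1, Trimmomatic 0.39, cutadapt 3.1 and Trim Galore, and the builds GRCm38.p6 and mm10; no source used here gives their settings or the annotation release. The authors deposited 1 table of FPKM values for 55323 rows with gene names, types, lengths and positions. The positions of the Hox rows did not match a GRCm38 annotation (0 of 39 at the same place, 35 with the same span elsewhere), so none is printed and none was converted. The columns of the table carry the medium and a number that the labels do not explain.

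Each FPKM value was multiplied by its length and divided by the step of 1 read of its library; 100% of rows came out within 0.01 of whole reads. With 1 library per medium no count test was run. Calls used log2(FPKM + 1), a pseudocount of 1 FPKM, rows of at least 1 FPKM in 1 or both libraries and a 2-fold threshold. Ratios have 95% exact Clopper-Pearson intervals, sums of reads likewise, and a count of 0 is given as a limit of 3 reads. PCR reads are not independent molecules, so intervals and limits cover counting error only. The interval code was tested on simulated data. Python 3.11.15, numpy 2.4.6, pandas 2.3.3, scipy 1.17.1 and matplotlib 3.10.9 were used.

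The Hox genes were named, with up to 4 genes per list of largest absolute log2 ratio, defining markers, and rows of at least 20 reads within a cluster. Genes named outside this rule (Meis1, Rarg, Egr2, Rxrg, Gmnn, Smc3, Rad21, Nipbl, Stag2, Ctcf, Cdx1, Cdx2, Cdx4, Hotair, Hoxa11os, Haglr, Mir10a) were chosen after their values were seen. Not every gene that the rule takes in is reported here. The members and lists were chosen with earlier results of these data known. The alternatives were other pseudocounts, filters, thresholds and scalings, and leaving out overlapping or leading genes.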

Additional observations from a re-analysis of the deposited data

How the results depend on the processing

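The count of Hox genes higher in SCM was 0 under each of the 10 alternatives. The count of lower genes was 0, and 1 at a threshold of 1.5-fold, 1 with a pseudocount of 0.1 FPKM and 1 on the plain ratio. That gene was Hoxc6. Several alternatives could give only 0 for both counts, since the main counts were 0. These were the 3-fold threshold, the pseudocount of 3 and the 2 subsets of the same genes. Adding genes under 1 FPKM in both could not change the counts either, since such genes cannot pass 2-fold on that scale. The median log2 ratio, 0.0478, became 0.0750 with SCM rescaled by the median ratio over 6137 rows that reached 5 FPKM in each library (log2 -0.03), 0.0406 over the 23 genes with a read, 0.0684 with a pseudocount of 0.1, 0.0369 with a pseudocount of 3, 0.0447 scaled to protein-coding rows, and 0.0877 over the 8 genes that share no exon bases with another row with reads. It was -0.16 over the 4 genes at 5 FPKM or more, Hoxa7, Hoxb4, Hoxb7 and Hoxc6, so its sign rests on the filter. Without the leading gene the ratio of summed FPKM was 1.16 for HoxA, 0.9996 for HoxB and 1.36 for HoxC; the last is above 1 where the sum with Hoxc6 is below it. HoxD has no ratio, since all its genes were at 0. Of 69 alternatives for single genes, 1 was counted as moved, Hoxc6 at -0.61 with a pseudocount of 3 against -0.88. The margin of that count was not the printed interval of the plain ratio. A change of filter leaves a single gene's ratio as it is, so those among the 69 could not move. Hoxc4, counted as unmoved, was at 0.83 with a pseudocount of 0.1 and 0.26 with a pseudocount of 3, against 0.50. Hoxc5 alone changed sign, at 0.00 after the median rescaling against -0.01. No paired analysis was possible because each medium has 1 library. With 1 library per medium, depth limits the genes under about 20 reads most, and the spread between cultures is unknown for all.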

Other observations

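Transcription factors that mark position outside the Hox clusters were also read. Of 21 limb and axial position factors, 5 reached 1 FPKM and 9 had 0 reads. En1, a homeobox gene of the midbrain-hindbrain boundary and ventral limb ectoderm, was at 162 FPKM in SCM and 356 FPKM in DMEM, a ratio of 0.456 (0.447 to 0.465) and -1.13 on the log2(FPKM + 1) scale, past 2-fold as 1 of the 5, beside 5.89% of all rows. En1 thus stood far above Hoxa7, at 24.4 FPKM in SCM and 18.3 FPKM in DMEM. Hand2, a factor of the sympathetic lineage and the limb bud, was at 3.26 FPKM in SCM and 1.74 FPKM in DMEM. Tbx3 was at 5.39 FPKM in SCM and 4.17 FPKM in DMEM, and Tbx15 at 5.82 FPKM in SCM and 5.14 FPKM in DMEM. Of 23 cranial crest factors, 4 reached 1 FPKM, 12 had 0 reads and none passed 2-fold, beside the same 5.89% of all rows. Among them were Tfap2a, at 27.8 FPKM in SCM and 38.9 FPKM in DMEM, Prrx1, at 2.21 FPKM in SCM and 0.963 FPKM in DMEM, and Tfap2b, at 1.003 FPKM in SCM and 1.25 FPKM in DMEM.

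Of 23 genes reported elsewhere as Hox targets, 10 reached 1 FPKM, 1 was higher and 1 was lower by 2-fold on the log2(FPKM + 1) scale, beside 3.10% and 2.80% of all rows, with a median of -0.18. Ncam1, a neural cell adhesion molecule that is also a Schwann cell marker, was at 200 FPKM in SCM and 61.3 FPKM in DMEM. Plaur, the urokinase receptor, was at 0.479 FPKM in SCM and 3.18 FPKM in DMEM. Osr1 was at 3.12 FPKM in SCM and 1.53 FPKM in DMEM and Epha4, an ephrin receptor, at 0.643 FPKM in SCM and 1.25 FPKM in DMEM.

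Of the 14 Schwann cell markers, 5 were higher and 0 lower by 2-fold on the log2(FPKM + 1) scale, beside 3.10% and 2.80% of all rows. Summed levels of the other marker lists were 63.1 FPKM in SCM and 94.7 FPKM in DMEM for perineurial cells, 2.02 FPKM in SCM and 0.486 FPKM in DMEM for pericytes and smooth muscle, 45.5 FPKM in SCM and 60.8 FPKM in DMEM for neurons, and 38.2 FPKM in SCM and 17.5 FPKM in DMEM for satellite glia and astrocytes. The perineurial sum was mostly Crabp2, at 55.1 FPKM in SCM and 90.2 FPKM in DMEM, while Itgb4 was at 4.25 FPKM in SCM and 0.941 FPKM in DMEM. The pericyte sum was mostly Cspg4, at 1.84 FPKM in SCM and 0.314 FPKM in DMEM, and the neuronal sum mostly Tubb3, at 45.0 FPKM in SCM and 60.2 FPKM in DMEM. Of the satellite glia and astrocyte markers, Glul was at 28.8 FPKM in SCM and 13.6 FPKM in DMEM, and Kcnj10 at 3.84 FPKM (761 reads) in SCM and 0.0445 FPKM (7 reads) in DMEM, a ratio of 86.2 (41.7 to 215). The part of these cells in the Hox values was not tested. The defining perineurial markers Cldn1 and Msln, the neuronal markers Rbfox3 and Syt1 and the astrocyte marker Aqp4 were at 0 in both.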
